A study of Rattus norvegicus with 16 samples.

Results

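The forepaw flexor tendon and the patellar tendon of the Sprague Dawley rat were compared over all genes, with 4 libraries of each, which were 8 of the 16 libraries of the series. The libraries were grouped by their labelled tissue, but the contrast and the gene lists below were chosen with earlier results of these data known. The other 8 libraries came from the supraspinatus tendon and the Achilles tendon, again 4 of each, and they are used here as a second pair of a forelimb and a hindlimb tendon. All 4 groups came from rats of this 1 outbred strain, and the labels give no treatment, genotype, age or sex. Total RNA of the bulk tissue was sequenced. The labels end in a rat number from 1 to 4 but do not say whether libraries of 1 tendon came from separate animals, so p-values measure only the spread between these libraries, which may be technical. Counts of 2 libraries of 1 tendon differed by a chi-square of 72.7 to 735 per degree of freedom, so none was a repeat of another within counting error. The flexor and the patellar tendon differ in limb, in place along the limb and in kind of tendon at once, and these differences cannot be told apart.

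A tendon is a rope of collagen fibrils made by sparse fibroblasts, joined to muscle at one end and to bone at the other. The finger flexors are long tendons that glide in a sheath across several joints, while the patellar tendon is a short band that carries the pull of the quadriceps across the knee. Fibroblasts of adult connective tissue are known to keep part of the positional code of the embryo, carried by HOX and other homeobox genes. BMP, Wnt, hedgehog and FGF signals shape limb, joint and tendon in development, and the same pathways are used again in the upkeep of adult matrix.

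Library totals ran from 92673343 to 102130759 counts in the flexor tendon and from 63397591 to 74829951 in the patellar tendon, without overlap (exact permutation test, two-sided p = 0.0286, the smallest that 4 against 4 allows). Levels are therefore given as CPM, the usual unit of counts over library size, with library sizes scaled by the trimmed mean of M-values (TMM), always in the order of replicates 1 to 4, and a gene with 3 counts in a library stood at 0.0283 to 0.0425 CPM. The genes that mark tendon fibroblasts were present in all 8 libraries: Scx, the tendon lineage transcription factor, at 31.4 to 42.9 CPM in the flexor and 15.6 to 67.7 CPM in the patellar tendon, and Tnmd, a membrane protein of mature tendon, at 238 to 336 and 258 to 810.5 CPM. Neither differed between the tendons by the test (log2 difference 0.01 ± 0.59, adjusted p = 0.992, and -0.80 ± 0.43, adjusted p = 0.135), and these markers were picked after their values were seen. Patellar 1 stood apart by its skeletal muscle RNA, described below, and flexor 3 by the lowest muscle and highest immediate early RNA among the flexor libraries. Achilles 1 lay nearest to patellar 3, not to another Achilles library, over the 500 most variable genes, so some results that use the Achilles tendon are also given without it.

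Of the 16948 genes tested, 8560 (50.5%) passed an adjusted p of 0.05 in edgeR's quasi-likelihood test with Benjamini-Hochberg adjustment. Of these, 4372 genes (25.8% of those tested) were higher in the flexor tendon and 4188 (24.7%) were lower. At least a 2-fold difference was fitted for 2512 of the higher and 1986 of the lower genes, and at least an 8-fold difference for 446 and 378. For 8271 genes (48.8%) the 4 libraries of one tendon all lay above the 4 of the other. Gene lists are read below by their counts and their median log2 difference, beside these shares and beside the median of all genes tested, which was 0.03. In bulk tissue, fewer cells of a type and less RNA per cell cannot be told apart. All log2 differences below are flexor minus patellar, with the standard error of the fit and the adjusted p of edgeR.

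Among the HOX genes, only 5′ HoxD genes were higher in the flexor tendon, and the genes higher in the patellar tendon included HoxC and HoxB genes. HOX genes encode homeodomain factors that mark position along the body and the limb, and the 5′ HoxD genes act in the outer limb, the hand and foot. Of 23 HOX genes tested, 5 were higher in the flexor tendon, 15 were lower and 3 did not pass, with a median of -1.60. The HoxC and HoxB genes described below are only part of the 15. Hoxd13 (ENSRNOG00000001588), the last gene of the cluster, was at 16.6, 14.2, 22.1 and 17.2 CPM in the flexor libraries and at 0.0243, 0, 0 and 0 CPM in the patellar libraries. The patellar values came from 2, 0, 0 and 0 counts against 1762, 1412, 2276 and 1665 in the flexor libraries, so that every flexor library was high and every patellar library at or near nothing. Hoxd12 had 87, 32, 69 and 67 counts in the flexor libraries and none in the patellar libraries, which makes it at least 14.7-fold higher against a floor of 3 counts per library. Hoxd11 was at 5.16, 4.04, 6.14 and 5.11 CPM against 0.0122, 0, 0.0132 and 0.0127 CPM, again with every patellar library near nothing.

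Towards the middle of the HoxD cluster the difference became smaller. Hoxd10 was at 14.4, 12.8, 22.1 and 14.8 CPM in the flexor and 2.02, 1.305, 1.79 and 3.26 CPM in the patellar libraries, a log2 difference of 2.93 ± 0.41 (adjusted p = 4.07e-05). Hoxd9 was at 17.7, 18.99, 30.8 and 19.9 CPM against 5.17, 4.59, 5.64 and 9.72 CPM (1.80 ± 0.31, adjusted p = 0.000249). For both genes the flexor libraries were all higher. Hoxd8, the next gene, had a log2 difference of 0.06 ± 0.23 (adjusted p = 0.852), Hoxd4 of -0.52 ± 0.40 (adjusted p = 0.291) and Hoxd3 of -1.55 ± 0.69 (adjusted p = 0.0742), and none of these 3 passed.

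The HoxC genes described here had the opposite pattern. Hoxc10 (ENSRNOG00000016149) was at 16.7, 14.2, 13.9 and 14.9 CPM in the patellar libraries and at 0.0189, 0.0202, 0.00973 and 0.0103 CPM in the flexor libraries, the latter from 2, 2, 1 and 1 counts. Hoxc9 was at 2.57, 4.78, 4.43 and 4.81 CPM in the patellar libraries against 0 to 0.0103 CPM in the flexor libraries, and Hoxc8 at 9.9, 13.6, 12.9 and 13.8 against 0 to 0.0202 CPM. All 3 were clearly present in each patellar library and at the level of a few counts in each flexor library. The more 3′ members kept a low level in the flexor tendon: Hoxc6 was at 0.0283, 0.101, 0.0973 and 0.113 CPM against 5.57, 5.94, 6.16 and 7.42 CPM (-6.19 ± 0.32, adjusted p = 2.93e-08). Hoxc5 differed by -3.94 ± 0.28 (adjusted p = 2.17e-07) and Hoxc4 by -5.07 ± 0.37 (adjusted p = 2.23e-07). Hoxc11 was low in both, with 35, 27, 24 and 19 counts in the patellar and 0, 0, 1 and 0 in the flexor libraries. From the HoxB cluster, Hoxb7 was at 1.69, 1.47, 1.09 and 1.47 CPM in the flexor and 12.4, 11.3, 8.71 and 9.29 CPM in the patellar libraries (-2.87 ± 0.23, adjusted p = 4.03e-07), and Hoxb2 differed by -2.47 ± 0.26 (adjusted p = 3.94e-06). HOX clusters hold overlapping and antisense transcripts, and the strand setting of the counts is not given in the sources used here, so reads of a gene and its antisense partner cannot be told apart.

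Among the other limb transcription factors, 22 of 45 tested were higher in the flexor tendon and 14 were lower. With a covariate for skeletal muscle markers, described with the other cell types below, 17 and 8 passed. Over all genes, calls fell from 8560 to 5459 with this covariate, 2676 higher and 2783 lower. Counts of every list with the covariate stand beside that general fall. Sall1 (ENSRNOG00000013907), a zinc-finger factor needed for digits, was at 7.58, 11.4, 17.1 and 11.3 CPM in the flexor libraries, with 1, 2, 0 and 0 counts in the patellar libraries. Hand2, which sets up the posterior limb and Shh in the bud, was at 6.002, 5.62, 7.54 and 5.88 CPM against 0.0608, 0.142, 0.172 and 0.216 CPM (5.40 ± 0.45, adjusted p = 5.82e-07). Lhx2, a LIM homeodomain factor of limb outgrowth, was 4.75 ± 0.61 higher on the log2 scale (adjusted p = 2.26e-05), and Msx2, a homeobox target of BMP signals, 4.70 ± 0.61 higher (adjusted p = 2.5e-05).

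The forelimb factor Tbx5 was at 25.3, 25.9, 39.4 and 25.4 CPM in the flexor libraries and at 1.06, 6.87, 6.05 and 6.16 CPM in the patellar libraries (2.53 ± 0.48, adjusted p = 0.000562). Pitx1, which specifies the hindlimb, was at 0.595, 0.413, 0.963 and 0.495 CPM in the flexor and 6.04, 13.7, 18.4 and 23.1 CPM in the patellar libraries (-4.63 ± 0.62, adjusted p = 3.01e-05). Pitx1 did not differ by the test between the supraspinatus and Achilles tendons, as given below. Between flexor and patellar tendon these 2 genes followed the limb of origin, with all libraries of one tendon above those of the other. Tbx4, a T-box factor that is a textbook gene of the hindlimb bud, went against it, at 26.2, 24.2, 45.8 and 28.3 CPM in the flexor and 3.697, 6.33, 11.7 and 14.6 CPM in the patellar libraries (1.78 ± 0.44, adjusted p = 0.00391, or 1.59 and 0.102 with the muscle covariate). Every flexor library had more Tbx4 than every patellar library, while the Achilles tendon had 17.1 ± 10.5 CPM (mean ± SD, n = 4) and the supraspinatus 1.08 ± 0.0964 CPM. Factors known from the segments nearer the trunk were lower in the flexor tendon: Meis2 with a log2 difference of -4.27 ± 0.32 (adjusted p = 2.57e-07), its relative Meis1 of -1.95 ± 0.21 (adjusted p = 5.44e-06) and Shox2 of -3.70 ± 0.49 (adjusted p = 2.64e-05). Lhx9, a relative of Lhx2, was lower too (-3.41 ± 0.40, adjusted p = 1.07e-05). Prrx1, expressed throughout limb mesenchyme, had a log2 difference of 0.25 ± 0.12 that did not pass (adjusted p = 0.097). The plot of limb genes by library shows these levels side by side.

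**Figure D1:**
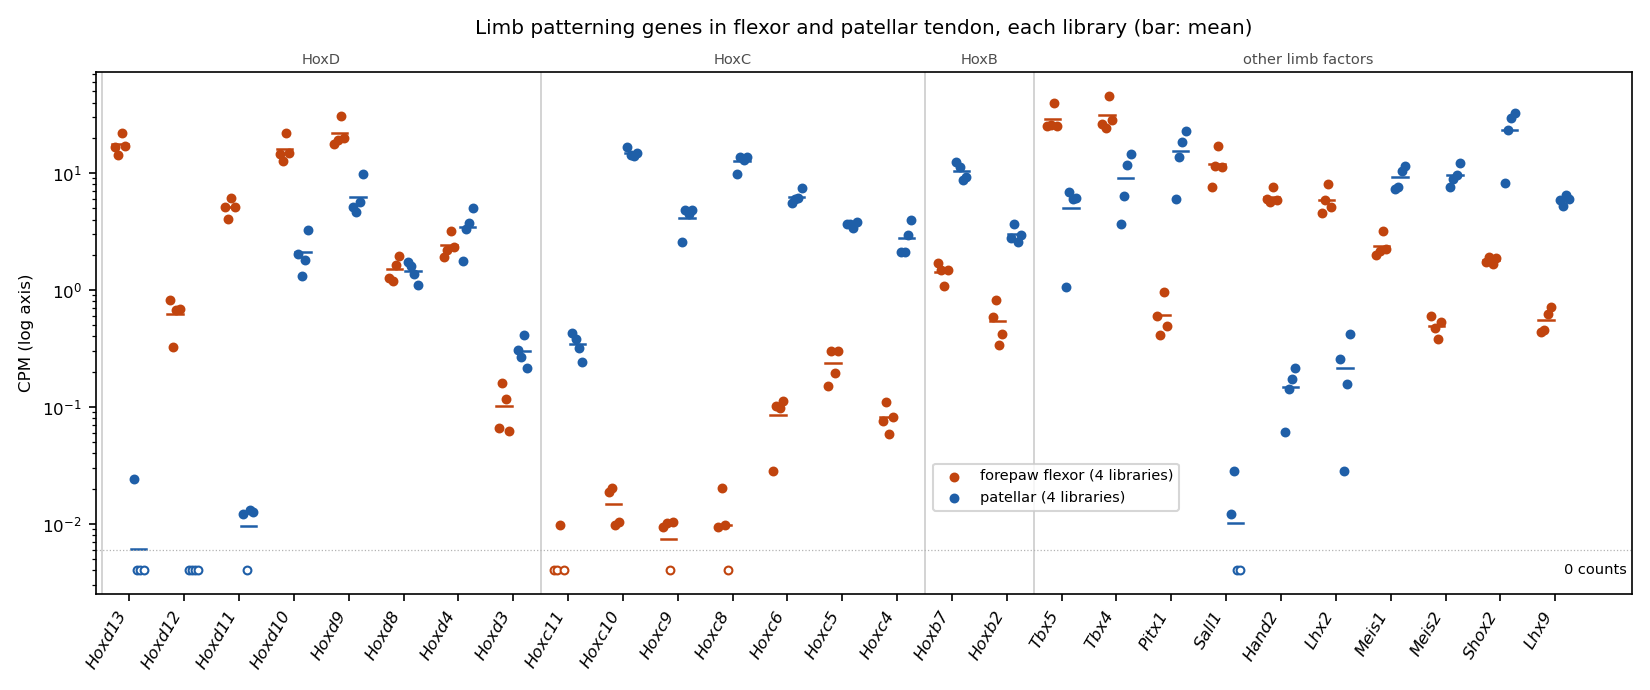
CPM of limb patterning genes in each of the 4 flexor and 4 patellar libraries, on a log axis, with points for libraries and short bars for the mean of each tendon; points on the bottom line had 0 counts. Hoxd13 lies at 14.2 to 22.1 CPM in the flexor libraries and Hoxc10 at 13.9 to 16.7 CPM in the patellar libraries, each near 0 in the other tendon, and Tbx4 is higher in all 4 flexor libraries.

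The fibrils' main collagen was lower in the flexor tendon, and decorin and lubricin, proteoglycans of fibril and gliding surface, were higher. Col1a1 (ENSRNOG00000003897), the main chain of type I collagen, was at 19800, 29050, 24870 and 17210 CPM in the flexor libraries and 47100, 65050, 76730 and 101400 CPM in the patellar libraries (-1.67 ± 0.34, adjusted p = 0.00089). The patellar libraries were all higher. Of 11 fibrillar collagen genes tested, 2 were higher in the flexor tendon and 5 lower, with a median of -1.0. Col3a1, which makes the thinner fibrils of repair and young tissue, differed by -1.26 ± 0.28 (adjusted p = 0.00195), and this call was lost with muscle markers as a covariate (log2 difference -0.65, adjusted p = 0.155). With that covariate, 3 of the list were lower and 0 higher. Without patellar 1, 7 were lower, and without flexor 1, 3. Of 30 other collagens, 7 were higher and 5 lower, where 25.8 and 24.7% of all genes were. Those lower included Col4a1 and Col4a2 of the basement membrane, at -2.05 ± 0.17 and -1.51 ± 0.15 (adjusted p = 7.7e-07 and 2.81e-06), as well as Col18a1 (-2.49 ± 0.23, adjusted p = 1.7e-06), and endothelial markers were lower beside them, as given below. Col6a6 differed by -3.71 ± 0.37 (adjusted p = 2.85e-06), whereas the abundant type VI chains Col6a1 and Col6a2 had log2 differences of 0.36 ± 0.21 and 0.09 ± 0.22 that did not pass (adjusted p = 0.156 and 0.752).

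Of 30 proteoglycan genes tested, 16 were higher in the flexor tendon and 5 lower, with a median of 1.05, or 13 and 3 with the muscle covariate. Dcn, decorin, which binds collagen fibrils and spaces them, was at 11630, 12980, 19290 and 15460 CPM in the flexor and 2211, 4204, 4916 and 5370 CPM in the patellar libraries (1.83 ± 0.27, adjusted p = 8.05e-05). Prg4, the lubricin that coats gliding surfaces, was at 1041, 1219, 1571 and 1154 CPM against 162, 93.1, 93.1 and 64.5 CPM (3.59 ± 0.32, adjusted p = 1.24e-06). Both were higher in every flexor library. Of 15 genes of tendon sheath and synovial lining, 7 were higher in the flexor tendon and 2 lower. Beside Prg4, the hyaluronan synthase Has1 was higher by 2.38 ± 0.65 (adjusted p = 0.00683) and Tppp3, a marker of sheath cells, by 2.03 ± 0.17 (adjusted p = 5.58e-07). The joint growth factor Gdf5 differed by -4.26 ± 0.38 (adjusted p = 1.07e-06) and the adhesion molecule Vcam1 by -2.46 ± 0.31 (adjusted p = 1.85e-05), both lower in the flexor tendon. Whether sheath was left on the tendons is not given in the labels, and its part in these differences was not tested.

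Matrix glycoproteins were split, with 17 of 51 higher and 19 lower in the flexor tendon. Postn, periostin, a matricellular protein of loaded and healing connective tissue, was at 56.2, 76.3, 90.04 and 112 CPM in the flexor and 1515, 2428, 3283 and 3664 CPM in the patellar libraries (-5.03 ± 0.44, adjusted p = 9.67e-07), with all patellar libraries higher. Tnc, tenascin C, was at 111, 149, 109.7 and 110.5 CPM against 408, 363, 522 and 659 CPM (-2.02 ± 0.32, adjusted p = 0.000134). In the other direction, Cilp, a cartilage intermediate layer protein, was at 1381, 1383, 2405 and 1500 CPM against 199, 115, 137 and 164 CPM (3.44 ± 0.25, adjusted p = 2.36e-07), and Comp, a pentameric organizer of fibrils, was 2.12 ± 0.39 higher (adjusted p = 0.000418). Spock1, Fbln1 and Ctgf were higher by 4.0 ± 0.68, 3.73 ± 0.54 and 2.74 ± 0.48 (adjusted p = 0.000219, 5.6e-05 and 0.000295). Sox9, the master factor of cartilage, was 2.68 ± 0.56 higher (adjusted p = 0.00114), within a chondrocyte list in which 6 of 19 were higher and 3 lower (1 lower without flexor 1 or flexor 4, and 5 without Achilles 1). Of 18 bone and mineralisation genes, 5 were higher and 5 lower. The counts of the chondrocyte and bone lists stand beside 25.8 and 24.7% of all genes. With the muscle covariate 3 and 2 of the bone list passed, and without flexor 3, flexor 4 or patellar 4, 3 were lower.

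Enzymes that finish collagen were split evenly, 6 higher and 6 lower of 22, where 25.8 and 24.7% of all genes were. Still, 2 of them differed widely. P4ha3, a prolyl 4-hydroxylase subunit, was at 78.02, 103, 119.5 and 92.1 CPM in the flexor and 1.605, 1.22, 2.96 and 6.88 CPM in the patellar libraries (4.95 ± 0.60, adjusted p = 1.33e-05). P3h2, a prolyl 3-hydroxylase, was at 114, 141, 177 and 158 CPM against 4.44, 3.87, 7.96 and 10.6 CPM (4.46 ± 0.37, adjusted p = 5.9e-07). All flexor libraries were higher for both, while Serpinh1, the collagen chaperone HSP47, was lower by the same test (-1.21 ± 0.18, adjusted p = 8.56e-05). Of 50 matrix proteases and their inhibitors, 22 were lower in the flexor tendon and 9 higher. With muscle markers as a covariate 3 of the collagen enzymes were lower, and the protease counts were 14 and 6. Mmp9, the gelatinase of leukocytes and osteoclasts, differed by -4.20 ± 0.49 (adjusted p = 9.47e-06) and Adamts4, which cleaves aggrecan, by -3.01 ± 0.49 (adjusted p = 0.000174). The stromelysins Mmp3 and Mmp10 went the other way, at 2.70 ± 0.27 and 2.62 ± 0.30 (adjusted p = 3.06e-06 and 9.46e-06). Mmp3 stood at 66.4, 74.1, 66.6 and 64.3 CPM in the flexor libraries and 12.3, 9.35, 9.94 and 10.2 CPM in the patellar libraries, with no overlap. These 2 stromelysins are close relatives, and how reads shared by near-identical copies were counted is not given in the sources used here. Of 17 tendon fibroblast genes, 8 were higher in the flexor tendon, among them Fibin (2.29 ± 0.33, adjusted p = 5.31e-05) and Tgfbi (2.11 ± 0.24, adjusted p = 6.95e-06), and 1, Tnc, was lower. Without patellar 1, 6 were higher and 2 lower, and with the muscle covariate 4 and 1.

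**Figure D2:**
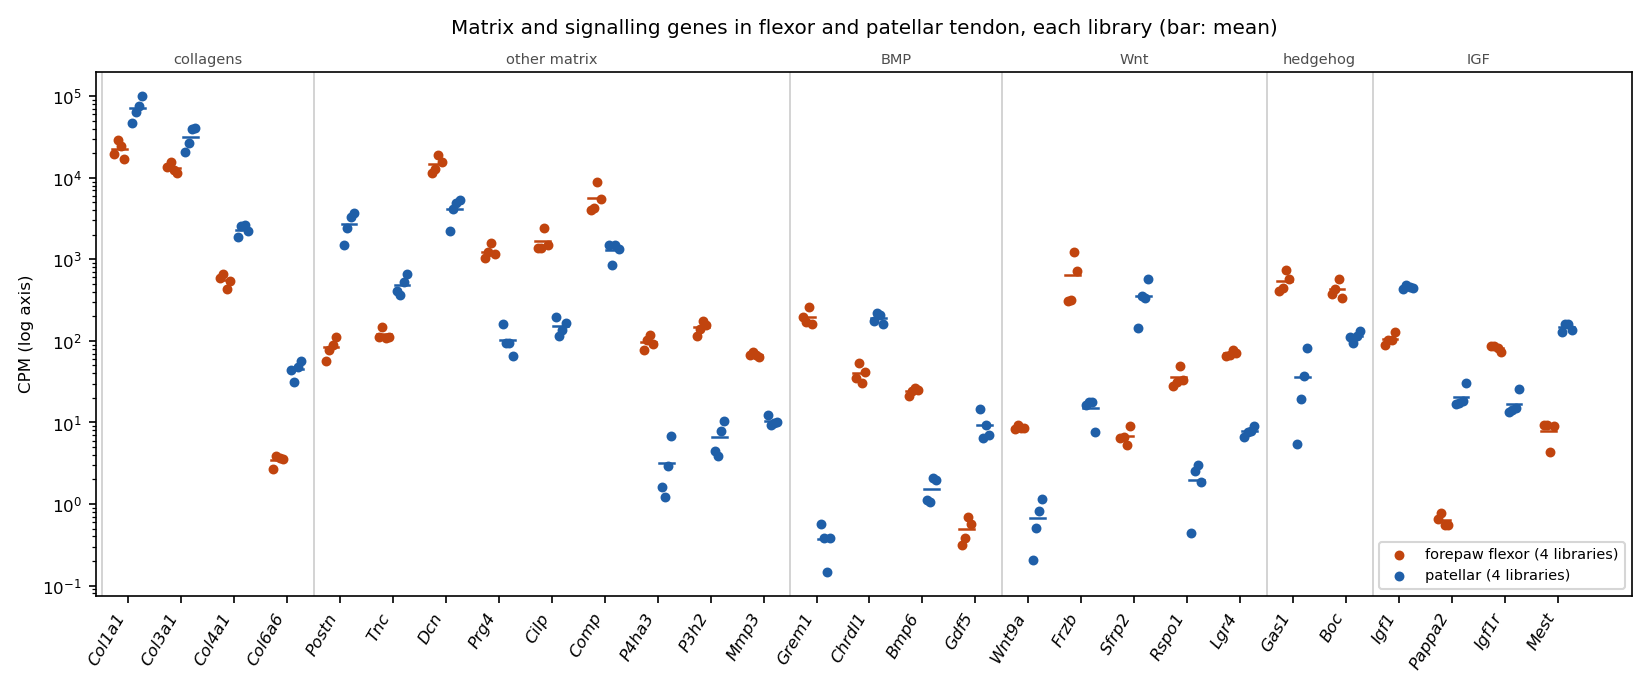
CPM of matrix and signalling genes in each of the 4 flexor and 4 patellar libraries, on a log axis, with points for libraries and short bars for the mean of each tendon. Grem1 lies at 161 to 263 CPM in the flexor and 0.145 to 0.572 CPM in the patellar libraries, and Col1a1 and Postn are higher in all 4 patellar libraries.

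Secreted regulators of BMP and Wnt signals held some of the widest differences of the comparison. BMPs are ligands of the TGF-beta family that drive cartilage, bone and joint formation, and their antagonists bind them outside the cell. Grem1 (ENSRNOG00000026053), gremlin 1, such an antagonist, was at 195, 171, 263 and 161 CPM in the flexor libraries and 0.572, 0.383, 0.145 and 0.382 CPM in the patellar libraries (9.05 ± 0.47, adjusted p = 2.93e-08). Every flexor library was high and every patellar library stood below 1 CPM. Of 17 antagonists tested, 10 were higher in the flexor tendon and 2 lower, with a median of 0.93. Chrdl2 was higher by 3.54 ± 0.48 (adjusted p = 3.42e-05), Sostdc1 by 3.13 ± 0.80 (adjusted p = 0.00481) and the intracellular inhibitor Smad6 by 2.89 ± 0.50 (adjusted p = 0.000275). The 2 that were lower were Chrdl1, at 35.1, 53.5, 30.4 and 41.8 CPM against 178, 217, 206 and 160.4 CPM (-2.24 ± 0.25, adjusted p = 7.05e-06), and Bmper (-1.75 ± 0.30, adjusted p = 0.000225). Chrdl1 and Chrdl2, both chordin-like proteins, thus went in opposite directions.

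Among the 17 BMP and GDF ligands tested, 4 were higher and 3 lower in the flexor tendon (1 lower with the muscle covariate). Of all genes tested, 25.8% were higher and 24.7% lower. Bmp6 was at 21.2, 24.4, 26.3 and 24.7 CPM in the flexor and 1.11, 1.05, 2.06 and 1.97 CPM in the patellar libraries (3.96 ± 0.23, adjusted p = 5.37e-08). Bmp2 was higher by 2.15 ± 0.26 (adjusted p = 1.23e-05) and Bmp4 by 1.08 ± 0.14 (adjusted p = 2.48e-05). Gdf5 was at 0.311, 0.383, 0.7003 and 0.567 CPM against 14.7, 6.52, 9.36 and 7.07 CPM, with every patellar library higher. Of 16 receptors and targets, 6 were higher, including the receptor Bmpr1b (3.01 ± 0.45, adjusted p = 7.67e-05), Acvr2b (2.72 ± 0.29, adjusted p = 5.03e-06) and the target Id4 (3.57 ± 0.24, adjusted p = 1.65e-07), and 3 were lower. Id1, the most used target of BMP signals, had a log2 difference of 0.05 ± 0.26 that did not pass (adjusted p = 0.889), and Id3 was lower (-0.62 ± 0.17, adjusted p = 0.00843). In the TGF-beta and activin list, 5 of 17 were higher and 2 lower, the former including the activin subunit Inhbb (1.88 ± 0.35, adjusted p = 0.000461) and Smad4, the shared signal carrier (1.73 ± 0.17, adjusted p = 2.35e-06). These counts, too, stand beside 25.8 and 24.7% of all genes, and with the muscle covariate 1 of this list was lower.

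Wnt proteins signal through Frizzled receptors and LRP5 and LRP6, and R-spondins strengthen the signal through LGR receptors. Of 13 Wnt ligands tested, 7 were higher in the flexor tendon and 1 lower, with a median of 1.64. Wnt9a, a Wnt of joint formation, was at 8.38, 9.18, 8.66 and 8.44 CPM in the flexor and 0.207, 0.511, 0.818 and 1.15 CPM in the patellar libraries (3.69 ± 0.48, adjusted p = 2.56e-05). Wnt2b, Wnt11 and Wnt16 were higher by 3.23 ± 0.50, 2.63 ± 0.33 and 2.44 ± 0.51 (adjusted p = 0.000104, 1.64e-05 and 0.00112). Wnt2 was the ligand that was lower, at -1.57 ± 0.47 (adjusted p = 0.0114), and it lost its call with the muscle covariate (-0.95, adjusted p = 0.273). Wnt5a had a log2 difference of -0.59 ± 0.24 that did not pass (adjusted p = 0.0541).

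Of 22 Wnt receptor and R-spondin genes, 15 were higher and 1 lower in the flexor tendon, with a median of 1.62. Lgr4 (ENSRNOG00000005715), a receptor of R-spondins, was at 65.6, 67.7, 77.6 and 71.5 CPM in the flexor and 6.56, 7.66, 7.83 and 9.17 CPM in the patellar libraries (3.18 ± 0.12, adjusted p = 1.42e-09), the smallest p of all genes higher in the flexor tendon. Its ligand Rspo1 was at 28.3, 31.3, 49.6 and 33.3 CPM against 0.438, 2.55, 3.02 and 1.86 CPM (4.18 ± 0.46, adjusted p = 5.44e-06). Both were higher in all 4 flexor libraries. The co-receptors Lrp5 and Lrp6 were higher by 2.17 ± 0.34 and 1.35 ± 0.23 (adjusted p = 0.000107 and 0.000207), and Fzd4, a Frizzled of blood vessels among other tissues, was the 1 gene that was lower (-1.38 ± 0.16, adjusted p = 7.22e-06). Secreted Wnt antagonists were higher as well, 10 of 14, with 1 lower and a median of 2.27. Frzb was at 312, 314, 1242 and 729 CPM in the flexor and 16.6, 18.01, 17.9 and 7.698 CPM in the patellar libraries (5.43 ± 0.51, adjusted p = 1.67e-06), and Sfrp5 was higher by 4.77 ± 0.67 (adjusted p = 4.85e-05). Their relative Sfrp2 went the other way, at 6.41, 6.61, 5.35 and 8.95 CPM against 143, 358, 335 and 580.1 CPM (-5.70 ± 0.54, adjusted p = 1.98e-06). Of 8 Wnt targets, 3 were higher, Tcf7 among them (1.13 ± 0.20, adjusted p = 0.000374), and 2 were lower, Ccnd1 and Lef1 (-1.45 ± 0.17 and -1.06 ± 0.29, adjusted p = 9.25e-06 and 0.00762). Of all genes tested, 25.8% were higher and 24.7% lower, and with the muscle covariate 1 target was higher.

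Hedgehog pathway genes were higher or did not pass: 12 of 15 were higher in the flexor tendon and 0 lower, with a median of 1.18. The count was 9 higher with the muscle covariate. Hedgehog proteins bind PTCH1 with the help of co-receptors and act through GLI factors. Boc, such a co-receptor, was at 376, 429, 572 and 339.7 CPM in the flexor and 113, 93.5, 115 and 134 CPM in the patellar libraries (1.91 ± 0.20, adjusted p = 4.03e-06). Gas1, another one, was at 405, 441, 737 and 582 CPM against 5.41, 19.7, 37.6 and 82.8 CPM (3.90 ± 0.80, adjusted p = 0.00101, or 3.29 and 0.0526 with the muscle covariate). The patellar values of Gas1 were spread widely, yet all flexor libraries lay above them. Hhip, which traps hedgehog proteins and is a target of the pathway, was higher by 3.20 ± 0.78 (adjusted p = 0.00328) and Kif7, which regulates GLI proteins in the cilium, by 2.26 ± 0.33 (adjusted p = 5.78e-05). The pathway's targets Ptch1 and Gli1, picked after their values were seen, were higher by 1.41 ± 0.32 and 1.18 ± 0.29 (adjusted p = 0.00213 and 0.004). The ligand Shh had 169, 148, 39 and 114 counts in the flexor libraries and 0, 8, 0 and 0 in the patellar libraries.

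Of 23 FGF genes, 15 were higher in the flexor tendon and 3 lower, with a median of 1.29. Fgf9 was higher by 2.86 ± 0.32 (adjusted p = 7.23e-06) and Fgf2 by 1.78 ± 0.42 (adjusted p = 0.00249), while Fgf10, the mesenchymal ligand of limb outgrowth, was lower, at -2.06 ± 0.34 (adjusted p = 0.000167). Insulin-like growth factors were lower and their receptor higher. Igf1 was at 89.3, 102, 103 and 129 CPM in the flexor and 429, 487, 464 and 448 CPM in the patellar libraries (-2.11 ± 0.16, adjusted p = 2.92e-07), Igf2 differed by -1.71 ± 0.27 (adjusted p = 0.000114), and the receptor Igf1r was higher by 2.26 ± 0.22 (adjusted p = 2.06e-06). Pappa2, a protease that frees IGF from its binding proteins, was at 0.661, 0.786, 0.554 and 0.546 CPM against 17.1, 17.1, 18.3 and 30.2 CPM (-5.02 ± 0.26, adjusted p = 2.93e-08). All patellar libraries held more Igf1 and more Pappa2 than any flexor library. Over the IGF list, 8 of 17 were higher and 7 lower. Imprinted growth genes, which are active in the growing young animal, were mostly lower, 8 of 12, with 1 higher, the growth-limiting receptor Igf2r (0.86 ± 0.13, adjusted p = 7.66e-05). Mest was at 9.24, 9.24, 4.32 and 8.93 CPM in the flexor and 128, 162, 163 and 136 CPM in the patellar libraries (-4.21 ± 0.24, adjusted p = 5.37e-08), and Plagl1 and Dlk1 differed by -2.36 ± 0.27 and -1.76 ± 0.54 (adjusted p = 7.63e-06 and 0.0143). In the retinoic acid list 8 of 19 were higher and 6 lower, and with the muscle covariate 4 and 4. Rdh10, which starts retinoic acid synthesis, was higher (1.80 ± 0.21, adjusted p = 8.55e-06) and the receptor Rarb lower (-1.50 ± 0.28, adjusted p = 0.000551).

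**Figure D3:**
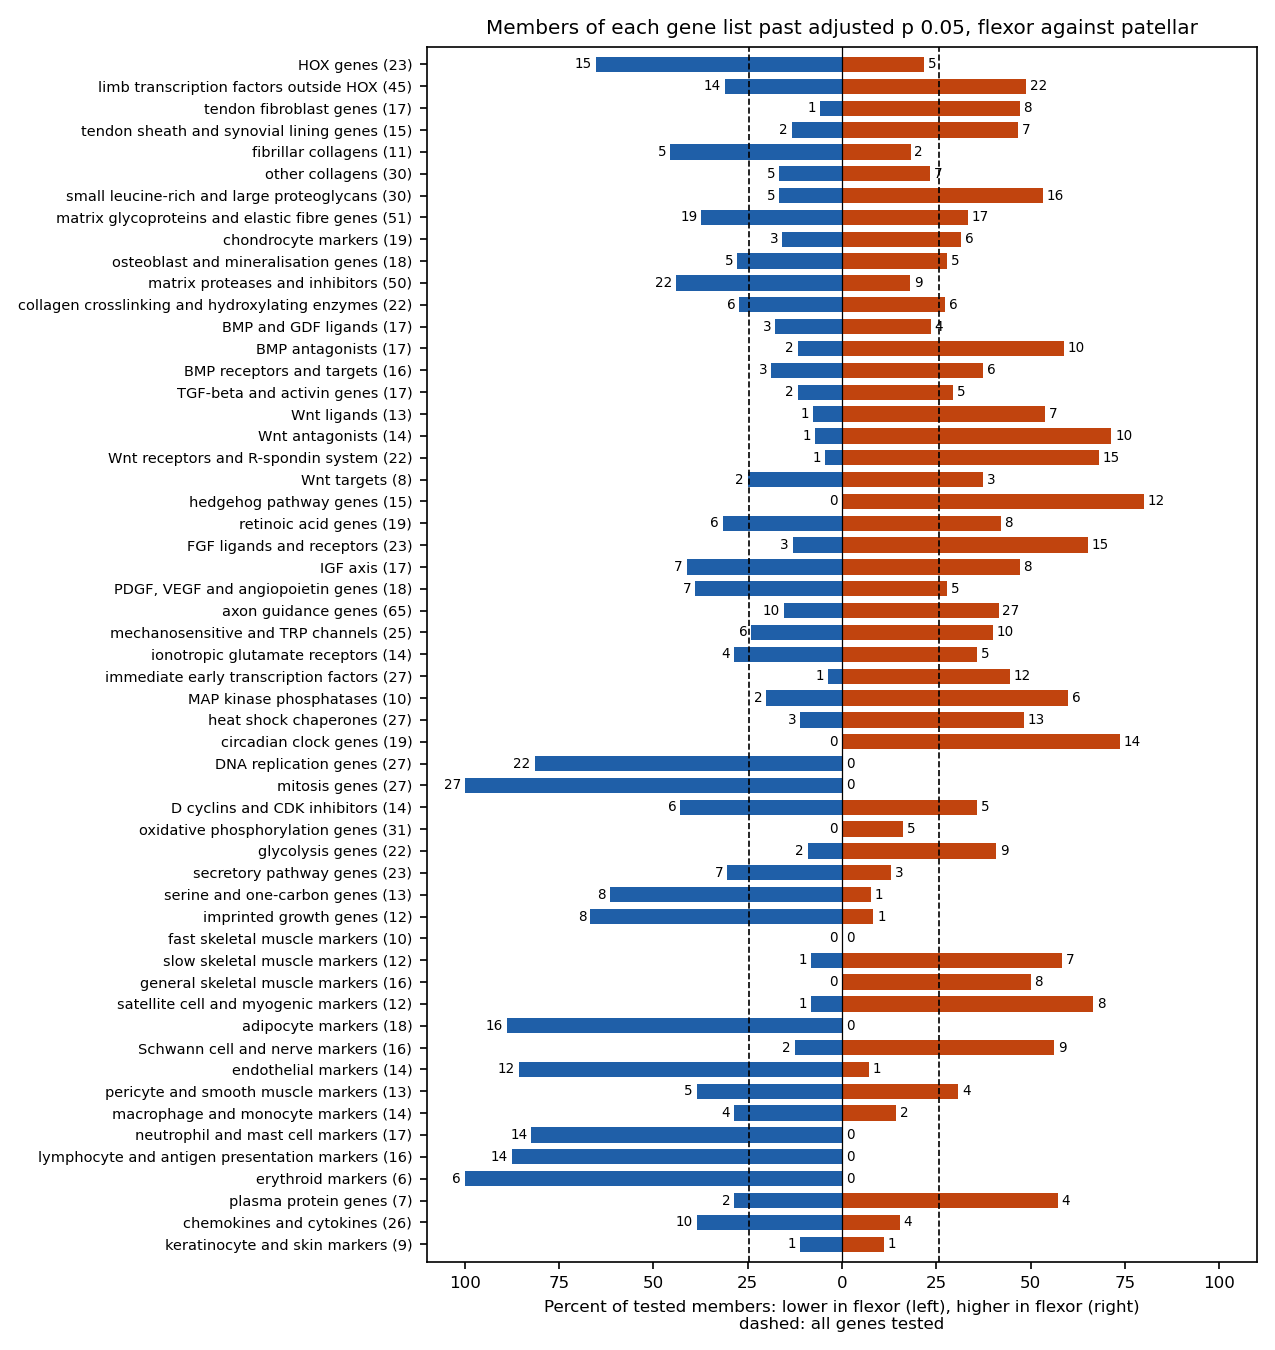
Percent of the tested genes of each of 55 lists that were higher (right) or lower (left) in the flexor tendon at an adjusted p under 0.05, as bars from 0, with dashed lines at the percent of all genes tested. Mitosis genes lie wholly on the lower side, 27 of 27, and hedgehog pathway genes wholly on the higher side, 12 of 15.

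Mitosis genes and most DNA replication genes were lower in the flexor tendon. All 27 mitosis genes tested were lower, with a median of -2.65, and their summed share of all counts, scaled by TMM like all shares below, was 0.00712, 0.00792, 0.00635 and 0.00577% in the flexor libraries and 0.0264, 0.0272, 0.0289 and 0.0447% in the patellar libraries. Every patellar library was above every flexor library. Top2a, the topoisomerase that untangles chromosomes, was at 1.71, 2.27, 1.18 and 1.103 CPM in the flexor and 23.5, 25.7, 27.03 and 39.2 CPM in the patellar libraries (-4.20 ± 0.37, adjusted p = 1.09e-06). Cenpf, a kinetochore protein, differed by -3.73 ± 0.45 (adjusted p = 1.4e-05) and Prc1, which bundles the central spindle, by -2.80 ± 0.30 (adjusted p = 5.03e-06). Of 27 DNA replication genes, 22 were lower and 0 higher, with a median of -0.84. Cdc6, which licenses replication origins, differed by -3.30 ± 0.27 (adjusted p = 5e-07). Among 14 D cyclins, inhibitors of cyclin-dependent kinases and RB proteins, 5 were higher and 6 lower. The D cyclin Ccnd2 was at 109, 112, 111 and 105 CPM in the flexor and 302, 315, 272 and 284 CPM in the patellar libraries (-1.43 ± 0.09, adjusted p = 1.34e-07), Ccnd1 and Ccnd3 were lower too (-0.88 ± 0.13 for the latter, adjusted p = 7.29e-05), and the inhibitors Cdkn1a and Cdkn2b were higher by 1.77 ± 0.30 and 1.82 ± 0.39 (adjusted p = 0.000244 and 0.00128). Markers of blood, vessel and fat cells were lower in the flexor tendon beside these genes, and their part in the cell division difference was not tested.

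Promoters of the mitosis list shared short motifs that the choice of the list did not use. The cell cycle homology region (CHR, letters TTTGAA) and the CCAAT box are known from promoters that are active in the G2 and M phases. Promoter sequences of 300 bases, 250 before and 50 after the start site, were taken from RefSeq on build GRCr8, where 23 of the 28 mitosis symbols were matched. TTTGAA on either strand was found in 16 of the 23 (69.6%) against 18.1% of all 27457 promoters, and CCAAT on either strand in 18 (78.3%) against 37.7%. Of the 22 DNA replication promoters matched, 1 (4.55%) held TTTGAA and 15 (68.2%) held CCAAT. The 2 motifs overlapped in 1 mitosis promoter. In 8 mitosis genes both motifs lay within the 120 bases before the start site, and 4 of these promoters are shown, because they carry the pattern, with TTTGAA and CCAAT, or their reverse complements TTCAAA and ATTGG, in capitals.
Cdc20 (chr5:137255800-137255919, minus strand, GRCr8): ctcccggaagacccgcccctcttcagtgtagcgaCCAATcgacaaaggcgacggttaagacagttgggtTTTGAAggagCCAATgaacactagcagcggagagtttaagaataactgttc
Cdk1 (chr20:19265173-19265292, plus strand, GRCr8): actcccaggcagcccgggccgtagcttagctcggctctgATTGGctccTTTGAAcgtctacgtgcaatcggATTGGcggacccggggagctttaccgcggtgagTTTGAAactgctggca
Hmmr (chr10:25665216-25665335, minus strand, GRCr8): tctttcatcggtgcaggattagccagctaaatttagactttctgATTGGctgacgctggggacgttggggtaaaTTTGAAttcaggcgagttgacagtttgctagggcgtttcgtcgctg
Prc1 (chr1:143659361-143659480, plus strand, GRCr8): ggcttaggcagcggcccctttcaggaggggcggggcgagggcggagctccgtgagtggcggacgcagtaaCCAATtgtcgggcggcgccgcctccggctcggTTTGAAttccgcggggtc
Each is the 120 bases immediately before the start site, 5′ to 3′. Cdk1, the kinase of mitotic entry, was at 2.39, 2.35, 3.85 and 2.58 CPM in the flexor and 14.1, 13.2, 13.9 and 22.2 CPM in the patellar libraries (-2.51 ± 0.36, adjusted p = 5.48e-05). Cdc20, which activates the anaphase-promoting complex, differed by -1.72 ± 0.21 (adjusted p = 1.64e-05) and Hmmr, a spindle protein, by -1.60 ± 0.25 (adjusted p = 0.000121). The 15 tested mitosis genes with TTTGAA were all lower in the flexor tendon, as were those without it, and a match of letters is a description, not a site.

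Some immediate early transcription factors, which cells induce within minutes of stress or stimulation, were higher in the flexor tendon, and most did not pass. Of 27 tested, 12 were higher, 1 was lower and 14 did not pass, with a median of 1.07. Their summed share of counts was 0.251, 0.2599, 0.757 and 0.467% in the flexor and 0.189, 0.163, 0.152 and 0.174% in the patellar libraries, highest in flexor 3. Without flexor 3, 7 of the list were higher, where 22.7% of all genes tested were. With the muscle covariate it was 7, against 15.8% of all genes. Egr1 was at 352, 358, 1012 and 526 CPM in the flexor and 86.01, 140.5, 155 and 153 CPM in the patellar libraries (2.07 ± 0.36, adjusted p = 0.000297). Klf2, a flow-responsive Krüppel-like factor, was at 98.5, 115, 301 and 206 CPM against 9.0, 11.03, 16.4 and 29.6 CPM (3.45 ± 0.53, adjusted p = 9.36e-05). Fos was at 178, 222, 1535 and 842 CPM against 112, 132, 86.8 and 69.6 CPM (2.79 ± 0.88, adjusted p = 0.0157), and without flexor 3 its difference was 2.02 and did not pass (adjusted p = 0.0644). Of 10 phosphatases that end MAP kinase signals, 6 were higher and 2 lower. Dusp1, induced with the immediate early genes, was higher by 3.06 ± 0.34 (adjusted p = 6.65e-06), and Dusp9 was lower, at -3.95 ± 0.72 (adjusted p = 0.000401). The time from death to RNA extraction is not given in the labels, and its part in these differences was not tested.

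The CArG box, bound by serum response factor, was found on either strand in 4 of 18 matched immediate early promoters (22.2%) against 1.64% of all promoters of the same length. Of these 4 genes, Egr1 and Zfp36 were higher in the flexor tendon (1.33 ± 0.42 for the latter, adjusted p = 0.0164, or 0.84 and 0.0849 without flexor 3), and Egr2 and Klf6 did not pass. The promoter of Egr1 is shown because it held more than 1 such box, in capitals.
Egr1 (chr18:26736958-26737077, plus strand, GRCr8): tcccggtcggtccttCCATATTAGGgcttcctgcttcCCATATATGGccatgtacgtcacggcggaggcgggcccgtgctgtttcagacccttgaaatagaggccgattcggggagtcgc
Heat shock chaperones fold proteins under stress, and 13 of 27 were higher in the flexor tendon and 3 lower. Under the muscle covariate 6 and 2 passed. Those higher included the small heat shock proteins Hspb7 (4.12 ± 0.79, adjusted p = 0.000586) and Hspb6 (2.79 ± 0.65, adjusted p = 0.00238), which muscle also makes. The heat shock element (GAANNTTCNNGAA or TTCNNGAANNTTC) was found in 5 of 24 matched chaperone promoters (20.8%) against 0.736% of all promoters. None of these 5 genes was higher in the flexor tendon: Hspe1 and Dnaja1 were lower (-0.73 ± 0.14 and -0.43 ± 0.11, adjusted p = 0.000495 and 0.00499), and Hspa8, Hsph1 and Hspd1 did not pass. The promoter of Hspe1, the mitochondrial chaperonin subunit HSP10, is shown with its element in capitals, as the 1 of these 2 with the larger fall.
Hspe1 (chr9:64084207-64084326, plus strand, GRCr8): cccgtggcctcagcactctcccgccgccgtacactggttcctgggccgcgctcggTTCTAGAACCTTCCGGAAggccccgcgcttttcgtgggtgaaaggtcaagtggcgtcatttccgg
Hspe1 was at 28.5, 24.4, 23.4 and 26.9 CPM in the flexor and 44.3, 48.1, 41.03 and 37.1 CPM in the patellar libraries, with every patellar library higher.

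Genes of the circadian clock were higher or did not pass, 14 of 19 higher and 0 lower, with a median of 1.04. Under the muscle covariate 7 were higher, where 15.8% of all genes tested were. Npas2, the partner of BMAL1, was at 22.6, 26.4, 27.3 and 21.3 CPM in the flexor and 4.99, 1.26, 2.81 and 3.47 CPM in the patellar libraries (2.96 ± 0.41, adjusted p = 4.21e-05), and the repressor Bhlhe41 was higher by 2.76 ± 0.56 (adjusted p = 0.000909). The hour of collection is not given in the labels, and its part was not tested. Genes of serine and one-carbon synthesis, which feed glycine to collagen and nucleotides, were mostly lower, 8 of 13, with 1 higher and a median of -0.99. Phgdh, the first enzyme of serine synthesis, was at 10.97, 13.2, 6.47 and 9.98 CPM in the flexor and 79.97, 112, 108 and 56.2 CPM in the patellar libraries (-3.13 ± 0.30, adjusted p = 2.3e-06), and Psat1, the second, differed by -2.59 ± 0.18 (adjusted p = 1.85e-07). Of 23 secretory pathway genes, 7 were lower and 3 higher, where 24.7 and 25.8% of all genes were. With the muscle covariate 4 and 0 passed, and without flexor 1 or flexor 2, 1 was higher. Sec61b, a subunit of the channel into the endoplasmic reticulum, differed by -1.40 ± 0.14 (adjusted p = 3.4e-06).

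Single genes of axon guidance and of ion channels differed widely. Of 65 guidance genes, 27 were higher in the flexor tendon and 10 lower, where 25.8 and 24.7% of all genes were, and with the muscle covariate 12 and 9. Without flexor 2, 17 were higher, and without patellar 2, 16, where 22.3 and 21.1% of all genes tested were. The receptor Epha5 was at 38.05, 40.8, 81.1 and 55.9 CPM in the flexor and 1.57, 0.823, 1.06 and 2.49 CPM in the patellar libraries (5.18 ± 0.42, adjusted p = 5.2e-07), and the netrins Ntn1 and Ntn4 were higher by 3.12 ± 0.36 and 3.14 ± 0.31 (adjusted p = 8e-06 and 2.49e-06). Nrp1, a receptor of semaphorins and VEGF, was lower (-1.64 ± 0.20, adjusted p = 1.52e-05). Of 25 mechanosensitive and TRP channels, 10 were higher and 6 lower. Trpc1 was at 11.3, 11.4, 13.4 and 11.9 CPM against 2.19, 2.07, 2.63 and 1.998 CPM (2.43 ± 0.14, adjusted p = 5.37e-08), with Pkd1 and Pkd2, the polycystins, higher by 2.18 ± 0.20 and 2.60 ± 0.29 (adjusted p = 1.43e-06 and 6.71e-06). Piezo2, the channel of touch and body position sense, was lower, at -1.75 ± 0.34 (adjusted p = 0.000713), and Trpv4, which senses swelling, at -1.26 ± 0.26 (adjusted p = 0.00113). Grin2c, a subunit of NMDA-type glutamate receptors, was at 10.9, 12.6, 17.6 and 10.5 CPM in the flexor and 0.0243, 0.0425, 0.066 and 0.0509 CPM in the patellar libraries (8.10 ± 0.35, adjusted p = 3.93e-09), while over the 14 glutamate receptor genes 5 were higher and 4 lower. With the muscle covariate 2 and 2 of them passed, and without flexor 1, flexor 2, patellar 2 or patellar 3, 3 were higher. Among 18 PDGF, VEGF and angiopoietin genes 5 were higher and 7 lower, where 25.8 and 24.7% of all genes were. Under the muscle covariate 2 were higher, and without patellar 1 or patellar 2, 3. Angpt4, a ligand of the TIE2 receptor of vessels, was at 2.803, 3.67, 2.52 and 5.12 CPM in the flexor and 108, 174, 182 and 119 CPM in the patellar libraries (-5.37 ± 0.32, adjusted p = 8.53e-08).

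Markers of other cell types differed between the tendons, beginning with skeletal muscle. General muscle markers made up 3.87, 2.25, 1.07 and 2.82% of counts in the flexor libraries and 1.67, 0.102, 0.0487 and 0.237% in the patellar libraries. Patellar 1 thus held more than the other patellar libraries and more than flexor 3. Of 16 general markers, 8 were higher in the flexor tendon, or 16 without patellar 1 and 5 without patellar 2 or patellar 4. Mb, myoglobin, was at 4116, 2299, 1404 and 3718 CPM against 124, 28.03, 16.5 and 17.9 CPM (5.95 ± 1.16, adjusted p = 0.000671). None of 10 fast-fibre markers passed with all libraries, and 10 of them were higher without patellar 1. The fast-fibre list made up 0.733 to 2.85% of counts in the flexor and 0.0123 to 1.87% in the patellar libraries. Of 12 slow-fibre markers, 7 were higher and 1 lower, Car3 (-3.44 ± 0.47, adjusted p = 3.62e-05), which fat cells also make. Of 12 satellite cell and myogenic markers, 8 were higher and 1 lower. With the covariate below, which holds the fast-fibre, slow-fibre and general markers themselves, the slow-fibre counts became 2 and 3. The counts of satellite cell markers, which it does not hold, became 4 and 1. No muscle marker was at 0 counts throughout a tendon. With a covariate added for the muscle markers (their mean log2 level in each of the 16 libraries), 5459 genes passed, 2676 higher and 2783 lower, against 8560 without it. This mean level was 7.558 to 9.418 in the flexor and 3.812 to 7.521 in the patellar libraries, without overlap, so that the covariate and the tendon cannot be fully told apart.

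Genes of glycolysis and oxidative phosphorylation were counted with and without the muscle covariate. Of 22 glycolysis genes 9 were higher and 2 lower, with 5 and 2 under the covariate and 15 and 2 without patellar 1. Hk2, the hexokinase of muscle and growing cells, was higher by 1.80 ± 0.30 (adjusted p = 0.000183). Of 31 oxidative phosphorylation genes 5 were higher and 0 lower, where 25.8 and 24.7% of all genes were. None of them passed under the covariate, and 8 were higher without patellar 1 and 15 without flexor 3. Without flexor 1, flexor 4 or patellar 4, none was higher.

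Fat and vessel markers were lower in the flexor tendon. Adipocyte markers made up 0.181, 0.162, 0.132 and 0.225% of counts in the flexor and 1.21, 1.79, 1.63 and 0.626% in the patellar libraries, all patellar libraries being higher. Of 18 tested, 16 were lower and 0 higher, with a median of -3.06. Adipoq, adiponectin, was at 105, 132, 85.7 and 173 CPM against 1643, 2409, 2161 and 963 CPM (-3.86 ± 0.58, adjusted p = 8.9e-05). Ucp1, the brown fat uncoupler, had 0 counts in the patellar and at most 1 in the flexor libraries, and Pnpla2 had 0 counts in the flexor libraries and at most 2 in the patellar libraries. A 0 in the count table is not by itself absence of the transcript, as given below for Hsp90aa1. Endothelial markers made up 0.112, 0.125, 0.0799 and 0.0932% of counts in the flexor and 0.359, 0.326, 0.273 and 0.304% in the patellar libraries, again without overlap, with 12 of 14 lower. The VEGF receptor Kdr was at 38.99, 40.9, 25.1 and 32.97 CPM against 291, 159, 125 and 159.8 CPM (-2.41 ± 0.33, adjusted p = 3.35e-05). The 1 endothelial marker that was higher was Lyve1, of lymphatic vessels and some macrophages (0.92 ± 0.27, adjusted p = 0.0104). Pericyte and smooth muscle markers were split, 4 of 13 higher and 5 lower, where 25.8 and 24.7% of all genes were. With the muscle covariate 2 and 3 passed, and without patellar 1, 3 were lower.

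Blood cell markers were lower as well. All 6 erythroid markers were lower in the flexor tendon, with a summed share of 0.00387 to 0.0135% of counts in the flexor and 0.0396 to 0.0703% in the patellar libraries. Of 17 neutrophil and mast cell markers 14 were lower and none higher, and of 16 lymphocyte and antigen presentation markers 14 were lower and none higher. Those lower numbered 9 and 8 with the muscle covariate. Cd74, the invariant chain of MHC class II, was at 182, 217, 134 and 248 CPM in the flexor and 648, 1227, 1556 and 1714 CPM in the patellar libraries (-2.72 ± 0.34, adjusted p = 1.61e-05). Macrophage markers were less one-sided, with 2 of 14 higher and 4 lower, and Csf1r, their growth factor receptor, had a log2 difference of 0.16 ± 0.26 that did not pass (adjusted p = 0.63). With the muscle covariate 1 of them was lower, and without flexor 3, 1 was higher. Of 26 chemokines and cytokines, 10 were lower, among them Cxcl12 (-2.01 ± 0.30, adjusted p = 7.32e-05), and 4 higher. Under the covariate 5 and 2 passed, and without flexor 3, patellar 2 or patellar 3, 2 were higher. Of 7 plasma protein genes, 4 were higher, including Apod (3.38 ± 0.79, adjusted p = 0.00249) and complement C3 (1.74 ± 0.44, adjusted p = 0.00462), and 2 lower. The summed share of this list went the other way, at 0.1597 to 0.2046% of counts in the flexor and 0.2189 to 0.2599% in the patellar libraries. Of 9 keratinocyte markers 1 was higher and 1 lower. The counts of macrophage and keratinocyte markers stand beside 25.8% of all genes higher and 24.7% lower.

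More Schwann cell markers were higher than lower. They made up 0.392, 0.3501, 0.261 and 0.415% of counts in the flexor and 0.165, 0.133, 0.116 and 0.09304% in the patellar libraries, with every flexor library higher. Of 16 tested, 9 were higher in the flexor tendon and 2 lower, with a median of 1.38. Without patellar 3 or patellar 4, 5 were higher. The markers of myelin were among the higher ones: Mag was at 7.92, 6.46, 3.01 and 6.68 CPM against 1.29, 1.05, 0.779 and 0.509 CPM (2.73 ± 0.83, adjusted p = 0.0135), and Ncmap was higher by 2.60 ± 0.81 (adjusted p = 0.0146). The 2 lower ones, Ngfr and Gfra3, are markers of non-myelinating or immature Schwann cells (-1.83 ± 0.37 and -1.85 ± 0.37, adjusted p = 0.000817 and 0.000804). The plot of marker shares by library shows these groups together. How much of the differences in matrix and signalling genes goes with the share of other cells was examined for muscle alone. The covariate used for it cannot be fully told apart from the tendon.

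**Figure D4:**
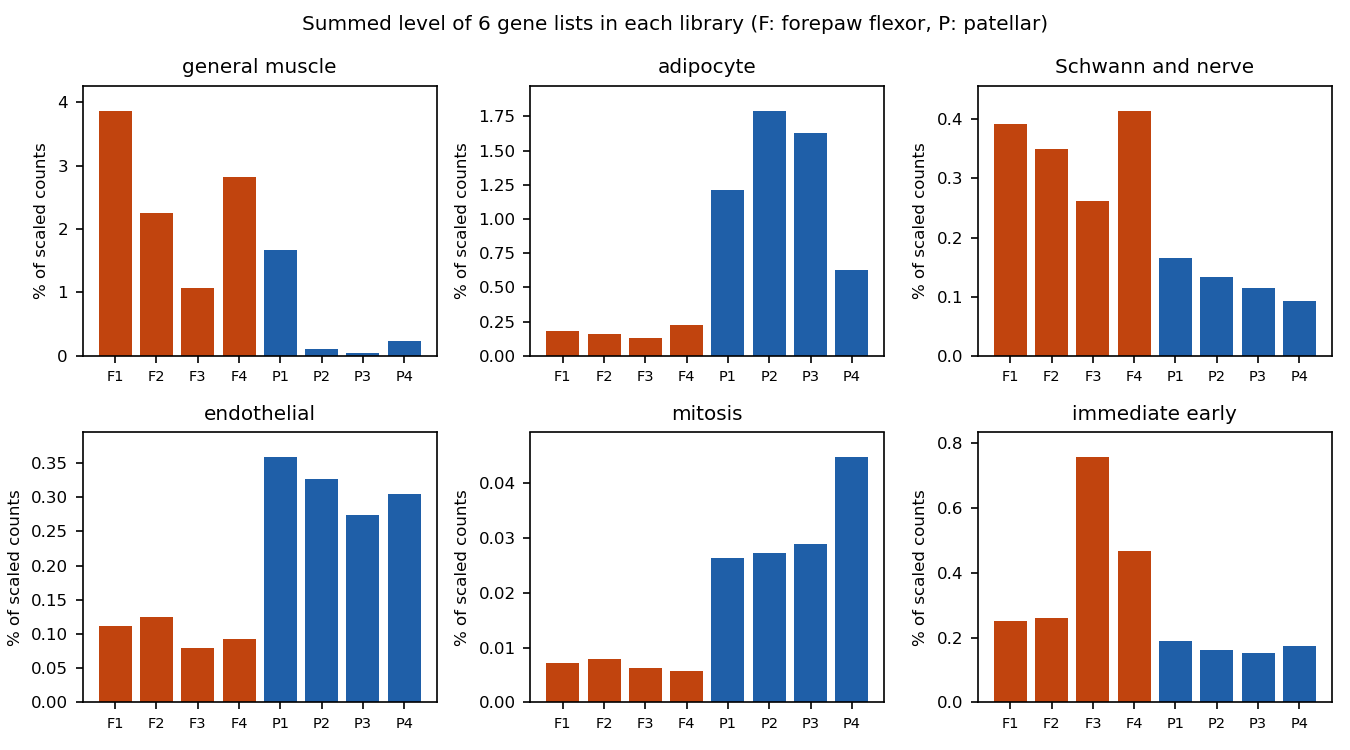
Summed share of counts, in percent of scaled counts on an axis from 0, of general muscle, adipocyte, Schwann cell, endothelial, mitosis and immediate early genes in each of the 4 flexor and 4 patellar libraries, 1 bar for each library. Patellar 1 stands above the other patellar libraries for muscle, at 1.67%, and flexor 3 above the other flexor libraries for immediate early genes, at 0.757%.

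The supraspinatus and Achilles tendons gave a second contrast of a forelimb and a hindlimb tendon, with no library in common with the first. There 8497 genes (50.1%) passed, or 8284 without Achilles 1. Of the genes called in both contrasts, 4074 had the same sign, which were 47.6% of the calls between flexor and patellar tendon and 47.9% of the others, and 818 had opposite signs. Across all genes tested the 2 log2 differences had a Pearson correlation of 0.479, over 16948 genes that are not independent and within libraries of 1 series. The difference between the 2 contrasts passed for 6077 genes (35.9%), 3009 positive and 3068 negative, or 5127 and 1361 when libraries were scaled by their totals without TMM. Without Achilles 1, 6403 passed, 3240 positive and 3163 negative. Scaling by totals moved the median difference of all genes by 0.34 on the log2 scale, the supraspinatus median by -0.41 and the flexor median by -0.07.

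Hoxd11, Hand2 and Sall1 stood apart between the contrasts, while Hoxc10 was higher in the hindlimb tendon of both. For Hoxd12 the difference between contrasts did not pass without Achilles 1. A positive difference below means that the gene was relatively higher in the flexor over the patellar tendon than in the supraspinatus over the Achilles tendon. Hand2 had 2.87 ± 1.19 CPM in the Achilles and 0.122 ± 0.0671 CPM in the supraspinatus tendon (mean ± SD, n = 4), and its difference between contrasts was 9.91 ± 0.63 (adjusted p = 3.26e-07). Hoxd11 had 0.184 ± 0.0823 and 0.0116 ± 0.0153 CPM there, and Sall1 had 0.4302 ± 0.109 and 0.0139 ± 0.0105 CPM. Both were thus low in the Achilles tendon and near nothing in the supraspinatus, so that the second pair was higher in the hindlimb tendon where the first was higher in the forelimb tendon. Hoxc6 and Meis2 had negative differences, -7.77 ± 0.40 and -5.91 ± 0.42 (adjusted p = 5e-08 and 1.08e-06), with 1.17 ± 0.158 and 2.11 ± 0.6597 CPM in the Achilles and 3.48 ± 0.658 and 6.57 ± 2.46 CPM in the supraspinatus tendon. Meis1 and Lhx9 were alike, at -4.17 ± 0.30 and -6.92 ± 0.58 (adjusted p = 1.08e-06 and 3.55e-06). Hoxc10 was at 11.9 ± 2.04 CPM in the Achilles and 0.0272 ± 0.0243 CPM in the supraspinatus tendon, hindlimb over forelimb in both pairs. Pitx1 was at 18.01 ± 13.2 and 11.3 ± 4.29 CPM, a difference that did not pass (-0.67 ± 0.52, adjusted p = 0.302), with a difference between contrasts of -3.95 ± 0.78 (adjusted p = 0.00157).

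Many Wnt receptor and hedgehog genes differed between the contrasts, and mitosis genes mostly did not pass. The difference passed for 11 of 14 Wnt antagonists, 5 of 13 Wnt ligands and 3 of 8 Wnt targets, where 35.9% of all genes passed. Of 22 Wnt receptor genes, 13 had a positive difference and 1 a negative one, or 15 and 2 without Achilles 1. Lgr4 was at 6.402 ± 0.897 CPM in the Achilles and 7.27 ± 0.563 CPM in the supraspinatus tendon, with a difference of 2.99 ± 0.17 (adjusted p = 9.96e-08). Of 15 hedgehog genes, 12 had a positive difference and 0 a negative one, or 10 and 0 without Achilles 1. For mitosis genes 26 of 27 were lower in the supraspinatus tendon, and the difference between contrasts passed for 1. Adipocyte markers were lower in the supraspinatus tendon too, 17 of 18. The difference between contrasts passed for 10, 9 positive and 1 negative, or 7 and 2 without Achilles 1. Schwann cell markers parted: 14 of 16 were lower in the supraspinatus tendon and 14 had a positive difference, or 12 without Achilles 1. These markers made up 0.8503% of counts in Achilles 1 and 0.124 to 0.1516% in the other Achilles libraries. The stromelysins Mmp3 and Mmp10 parted as well, with differences of 6.84 ± 0.40 and 6.45 ± 0.44 (adjusted p = 1.53e-07 and 7.42e-07), Mmp3 being at 139 ± 37.1 CPM in the Achilles and 7.84 ± 3.48 CPM in the supraspinatus tendon. Muscle markers made up 16.7 to 30.4% of counts in the supraspinatus and 0.769 to 2.08% in the Achilles libraries, a wider gap than between flexor and patellar tendon. With the muscle covariate 5145 differences between contrasts passed. The mean log2 level of muscle markers was 10.64 to 11.69 in the supraspinatus and 3.619 to 7.612 in the Achilles libraries, without overlap. The covariate therefore cannot separate muscle from tendon here, and the part of muscle in these differences stays untested.

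**Figure D5:**
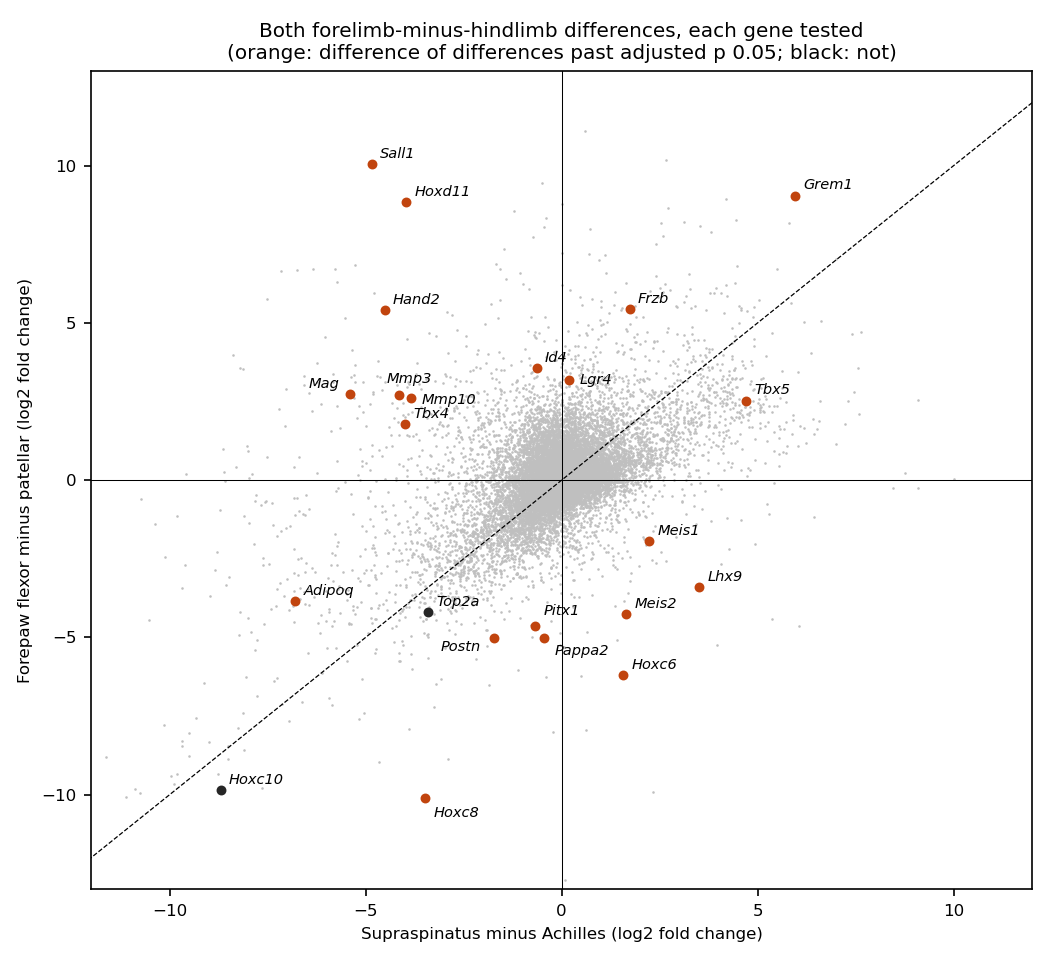
Log2 difference of flexor minus patellar tendon against that of supraspinatus minus Achilles tendon, 1 point for each of the 16948 genes tested, with named genes marked in orange where the difference of the 2 contrasts passed and in black where it did not. Sall1, Hoxd11 and Hand2 lie high for the flexor and low for the supraspinatus tendon, and Hoxc10 lies low for both; fitted values of genes near 0 counts in a tendon depend on the fit.

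The authors' deposited table lists this pair of tendons for 12588 genes, of which 7269 have an FDR under 0.05, 3529 positive and 3740 negative. Of the genes called here, 6739 are called there with the same sign and 0 with the opposite sign, and 1683 called here are not listed there. Hsp90aa1, a chaperone that nearly every cell makes, had 0 counts in 7 of the 8 libraries, so a 0 in the count table is not by itself absence of the transcript.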

How the data were processed

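The deposited values are raw counts, whole numbers for each Ensembl gene in 16 libraries. The submitters' processing notes list HISAT2, FastQC, edgeR and rat build rn6, with no versions. How reads were counted, the strand setting and the annotation release are not given in the sources used. The authors' table gives a log2 fold change, a log2 mean CPM and a p-value for each pair of tendons, per the file headers.

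Of 23285 genes, 16948 passed filterByExpr (minimum count 10, minimum total 15). Quasi-likelihood fits had a term for each tendon and used all 16 libraries, so that the 4 tendons share 1 estimate of spread (edgeR 4.0.16, R 4.3.3, TMM, 12 residual degrees of freedom). The contrasts were flexor minus patellar, supraspinatus minus Achilles, and the difference of these, each adjusted by Benjamini-Hochberg at 0.05. Standard errors were the size of the log2 difference over the square root of F. CPM were TMM-scaled. Median-of-ratios scaling, library totals, DESeq2 1.42.0, limma-voom 3.58.1, other filters, a replicate block, a muscle covariate (mean log2 CPM of muscle markers, prior count 2), the 2 tendons alone and leaving out each library were tried. Of genes changed in simulated data (200 of 16711), 58% were recovered at 2-fold and 92% at 4-fold, and 4.32% of calls were false. In the real comparison 50.5% of genes were called, a far larger share, so these rates do not describe it.

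The contrast and the 55 gene lists (1195 symbols, 1127 matched, 7 by an older symbol, 1061 tested) were chosen with earlier results of these data known. Genes were named by a rule: the leading 10 by fold and by p in each direction, the leading 4 per list and direction, the 2 most abundant per list, members of the HOX, limb factor, fibrillar collagen, BMP antagonist, Wnt ligand and D cyclin lists, the leading 10 by p of the difference, and the best motif matches. Which of these are described, and the genes named to complete a count of 5 or fewer, was settled after their values were seen. Promoters were taken from the RefSeq table (GRCr8, 33469 entries, 27457 by symbol) and searched with Python 3.11.15.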

Additional observations from a re-analysis of the deposited data

Results flagged for a closer look

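Within a tendon, single libraries stood apart from the other 3 by Dixon's criterion, which chance meets in about 1 in 20 groups: 30 of 336 groups of 4 values for the genes named here and 10 of 110 for the summed shares of the gene lists. Patellar 1 stood apart by muscle. All muscle markers together made up 4.149% of its counts against 0.7842 to 0.9152% in the other patellar libraries, general muscle markers 1.671%, fast-fibre markers 1.874% and satellite cell markers 0.003289%. Glycolysis genes made up 0.8239% of its counts and heat shock chaperones 0.3005%. Its level of Mb was 124.4 CPM against 16.5 to 28.03 CPM in the others, of Hspb6 169 CPM against 35.88 to 43.03 CPM and of Hspb7 18.58 CPM against 4.211 to 4.978 CPM. Genes of other kinds stood apart in the same library: Adamts4 at 44.2 CPM and Sostdc1 at 3.819 CPM were high, and Tbx5 at 1.058 CPM, Hoxc9 at 2.566 CPM and Sec61b at 173.6 CPM were low. The part of muscle RNA in these 5 was not tested.

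Patellar 4 stood apart by cell division and by receptor genes. Mitosis genes made up 0.04472% of its counts, Cdk1 was at 22.19 CPM against 13.23 to 14.13 CPM in the other patellar libraries, and Hmmr was at 9.237 CPM. It also held more Lrp5 (46.77 CPM against 17.37 to 22.1 CPM), Igf1r (25.42 CPM), Pappa2 (30.16 CPM), Bmp2 (8.296 CPM), Gli1 (5.102 CPM) and Wnt2b (0.3181 CPM). Frzb at 7.698 CPM, Hk2 at 10.98 CPM and the TGF-beta list at 0.1578% of counts were low there. In patellar 2, Shh was at 0.1135 CPM and at 0 in the other 3.

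Flexor 3 stood apart by Cilp at 2405 CPM against 1381 to 1500 CPM in the other flexor libraries, by Fbln1 at 618.3 CPM, Ntn4 at 79.49 CPM, Tbx5 at 39.42 CPM, Hoxd9 at 30.82 CPM, Fgf9 at 29.32 CPM and Cdk1 at 3.852 CPM, all high. Mest at 4.319 CPM and Sostdc1 at 6.42 CPM were low there. Limb transcription factors made up 0.05824% and DNA replication genes 0.03482% of its counts, both the highest of the flexor libraries. In flexor 2, Tnc at 149.4 CPM and Tppp3 at 538.8 CPM were high, and in flexor 4 the Wnt targets made up 0.02177% of counts.

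The log2 difference between flexor and patellar tendon departed from that between supraspinatus and Achilles tendon, by edgeR's test of the difference itself, for 12 genes named here by that rule. It was positive for Sall1 (14.88), Hoxd11 (12.81), Hand2 (9.91), Mmp3 (6.84), Mmp10 (6.45), Id4 (4.20) and Lgr4 (2.99). It was negative for Hoxc6 (-7.77), Lhx9 (-6.92), Meis2 (-5.91), Pappa2 (-4.58) and Meis1 (-4.17). All 12 passed with the same sign without Achilles 1, with libraries scaled by their totals, and under every other alternative run. The values of Sall1 and Hoxd11 rest on tendons with almost no counts and depend on the fit.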

How the results depend on the processing

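Over 26 other settings, 7542 to 9142 genes passed between flexor and patellar tendon, apart from the fit with muscle markers as a covariate, in which 5459 passed (2676 higher, 2783 lower) and 1873 between supraspinatus and Achilles tendon (840 higher, 1033 lower). Leaving out 1 library in turn gave 7542 to 8951. Scaling by library totals, which moved the supraspinatus median by -0.41, gave 2275 higher and 8430 lower genes between supraspinatus and Achilles tendon, and 5127 positive and 1361 negative differences between the contrasts; the cause of the low scaling factors was not tested. For flexor against patellar it gave 3867 higher and 4559 lower genes. DESeq2 called 9142 genes and limma-voom 8756. Of 156 named genes that passed, 4 were lost under the covariate (Col3a1, Gas1, Tbx4, Wnt2) and 2 without 1 library (Fos without flexor 3, Zfp36 without flexor 3 or patellar 3). In 7 lists with 1 gene called in a direction, that count became 0 or 2 when single libraries were left out. No named gene changed sign in a called value.

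Same-numbered flexor and patellar libraries had deviations that correlated at 0.203, 0.0267, 0.186 and -0.0304 over 16948 genes. Libraries of different numbers were not compared, so these values cannot decide whether the numbers pair the libraries. The main fit had no block because the labels do not say that a number marks an animal. With a replicate block 8699 genes passed (4537 higher, 4162 lower), and of the named genes Fos was lost (adjusted p = 0.0581). Leaving out Achilles 1 and patellar 1 together was chosen after seeing the data and gave 8907. Depth limits genes near 3 counts, such as Hoxd12 and Shh, and levels of different genes were not compared.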
